A study of Rattus norvegicus with 24 samples.

Results

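Hephaestin (Heph) and 7 other genes of iron handling were followed after liver surgery in 2 rat brain regions, the hypothalamic paraventricular nucleus (PVN) and the central amygdala (CEA). The genes were chosen by symbol from the count table as Heph, ceruloplasmin (Cp), ferroportin (Slc40a1), transferrin receptor (Tfrc), transferrin (Tf), ferritin heavy chain (Fth1), iron regulatory protein 2 (Ireb2) and the divalent metal transporter (Slc11a2). The 8 symbols matched 9 of the 35032 genes in the table, because Slc40a1 had 2 rows. The set was chosen because Heph was higher in operated rats of both regions, so that difference is given as a description and without a p-value.

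mRNA was sequenced from male Sprague-Dawley rats, 24 libraries in all and 3 in each of 8 groups. Normal control rats (NC) were not operated on, and the others had part of the left liver lobe removed under isoflurane, alone (HT), with electroacupuncture at the Zusanli and Sanyinjiao points before and after the operation (EA), or with the needles placed at the same points and left unconnected (SEA). Rats of all groups, NC included, were held awake in a restraint for the same time, and brains were collected on the day following the last stimulation. By the methods, the brain samples did not all come from the same animals, and the labels do not tie a PVN library to a CEA library of the same rat. The methods name fewer rats than the 24 libraries, so a rat may have given libraries of both regions, and the regions may not be independent. HT, EA and SEA together are called operated below (9 libraries per region). The regions matched their markers, since the summed level of 6 neuroendocrine genes including Avp, Oxt and Crh was 410 to 1349 CPM (defined below) in the PVN and 35.2 to 179 CPM in the CEA, and that of 7 amygdala and striatum genes including Prkcd and Penk was 389 to 485 CPM and 2664 to 6447 CPM.

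Iron enters brain cells mainly as transferrin bound to the transferrin receptor, is released from the endosome through Slc11a2, and leaves cells through ferroportin, the only known iron exporter of mammals. Exported iron must be oxidized to be loaded onto transferrin. Hephaestin, anchored in the membrane, and ceruloplasmin, secreted or anchored on astrocytes, are the copper-containing ferroxidases that do this. Ireb2 binds hairpins called iron-responsive elements in mRNAs of this set and adjusts their translation or stability to the iron supply, and ferritin stores what is not used. In the brain, oligodendrocytes are rich in transferrin and iron.

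The bases before the transcription start are shown for 3 genes, Heph and Cp because their levels were correlated across libraries and Tfrc because it was the single member with both hypoxia-element cores, ACGTG and GCGTG. They are the 250 bases upstream of the start in RefSeq for GRCr8, written 5′ to 3′ on the strand of the gene, at chrX:65308806-65309055 (plus strand), chr2:104368420-104368669 (plus strand) and chr11:81690319-81690568 (minus strand). Capitals mark either core, read on both strands.
Heph: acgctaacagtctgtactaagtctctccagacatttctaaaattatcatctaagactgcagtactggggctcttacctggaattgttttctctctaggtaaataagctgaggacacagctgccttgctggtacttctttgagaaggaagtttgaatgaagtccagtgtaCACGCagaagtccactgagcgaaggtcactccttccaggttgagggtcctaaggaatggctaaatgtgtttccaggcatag
Cp: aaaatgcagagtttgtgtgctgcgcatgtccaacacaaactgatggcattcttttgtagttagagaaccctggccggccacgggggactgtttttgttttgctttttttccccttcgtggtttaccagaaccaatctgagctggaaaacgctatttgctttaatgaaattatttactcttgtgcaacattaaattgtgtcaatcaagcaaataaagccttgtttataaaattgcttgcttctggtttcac
Tfrc: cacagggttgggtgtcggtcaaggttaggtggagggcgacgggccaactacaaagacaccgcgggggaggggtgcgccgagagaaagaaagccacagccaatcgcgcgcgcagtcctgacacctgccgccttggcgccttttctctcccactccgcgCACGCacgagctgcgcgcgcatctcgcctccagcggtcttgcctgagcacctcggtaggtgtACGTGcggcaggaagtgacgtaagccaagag
RefSeq windows were found for 7 of the 8 symbols, in 8 windows, since Slc11a2 had 2 starts. The Heph window held GCGTG once, on the minus strand, with its first base 81 bases before the start. The Cp window held neither core. The Tfrc window held ACGTG once and GCGTG once, the nearer 31 bases before the start. In all 33469 windows of this length, 16.6% held ACGTG and 25.9% held GCGTG on either strand. The first Slc11a2 window held GCGTG once, and the windows of 4 genes held neither core. The antioxidant element TGACNNNGC was in none of the 8 member windows and in 10.1% of all windows. An iron-responsive hairpin, searched as a C, a stem of 5 base pairs and the loop CAGTGN on the gene strand of the 300 bases around the start, was in none of the member windows and in 0.0568% of all windows. The rest of each mRNA was not searched and Fth1 had no window, so this does not show whether the members carry such hairpins elsewhere. These are matches of letters, and no binding was measured.

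Heph (ENSRNOG00000012294, chrX:65563122-65658516, plus strand, in the coordinates of the count table, whose build the table does not name) was low in unoperated rats and higher in every operated library. Its level in the PVN, in counts per 1000000 counts scaled by TMM factors (CPM), was 13.8, 15.9 and 15.1 in NC replicates 1 to 3, then 36.5, 29.3 and 36.1 in HT, 43.1, 30.7 and 43.4 in EA, and 28.5, 34.3 and 25.9 in SEA. In the CEA it was 19.3, 16.4 and 14.5 CPM in NC, 39.4, 38.6 and 31.3 in HT, 46.7, 40.1 and 33.2 in EA, and 30.0, 27.7 and 21.1 in SEA. In both regions all 9 operated libraries lay above all 3 NC libraries, with 217 to 816 reads behind each value.

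**Figure D1:**
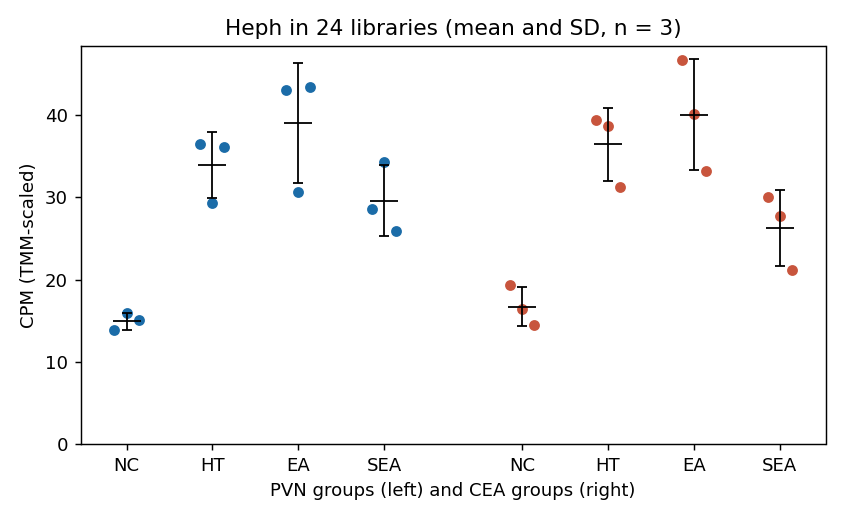
Heph CPM (vertical axis, TMM-scaled, from 0) in each library of the 4 PVN groups (blue) and the 4 CEA groups (red), with the group mean as a bar and its SD as the error bar (n = 3). The NC libraries lie between 13.8 and 19.3 CPM in both regions, and the operated libraries between 21.1 and 46.7 CPM.

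Mean Heph was 14.9 ± 1.05 CPM in PVN NC (SD, n = 3) and 34.2 ± 6.23 CPM in operated PVN (SD, n = 9), a ratio of 2.29. In the CEA it was 16.7 ± 2.42 CPM in NC and 34.2 ± 7.72 CPM in operated rats, a ratio of 2.05. The fitted log2 fold changes were 1.21 (SE 0.16) in the PVN and 1.04 (SE 0.20) in the CEA. These values selected the set. In bulk tissue, more cells that express a gene and more of its RNA per cell cannot be told apart. NC and operated libraries did not overlap for 4.08% of 17211 genes tested in the PVN and for 0.569% of 17046 in the CEA, in either direction. The lowest operated PVN library, SEA replicate 3 at 25.9 CPM, and the lowest operated CEA library, SEA replicate 3 at 21.1 CPM, were the closest to the NC range.

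Ordered by mean, Heph ran from PVN NC through CEA NC, CEA SEA, PVN SEA, PVN HT, CEA HT and PVN EA to CEA EA. Each group overlapped the next in this order except at 1 step, from CEA NC (highest library 19.3 CPM) to CEA SEA (lowest library 21.1 CPM). The 2 regions were close at each treatment, and over all 24 libraries with treatment as a covariate the log2 difference of CEA from PVN was 0.01 (SE 0.08, 95% interval -0.16 to 0.17, adjusted p = 0.959, edgeR's quasi-likelihood test).

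Libraries of the NC groups also differed from most operated libraries in a class I histocompatibility gene, LOC103690108, chosen after its values were seen. It had 0 to 3 counts in the 6 NC libraries and 301 to 1225 counts in 14 of the 18 operated libraries. The other 4 operated libraries, SEA replicates 1 and 2 of both regions, had 0 to 4 counts, and Heph there was 27.7 to 34.3 CPM, above all NC libraries of both regions. The 2 remaining SEA libraries, with 585 and 1146 counts, had Heph at 21.1 and 25.9 CPM. The methods name a single supplier and say that the rats used for brain samples belonged to 1 batch. The part of this difference in the result was not tested.

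Among the operated groups of each region, Heph was highest with current and lowest with the needles alone, by group mean, but none of these differences passed the threshold. In the CEA the EA libraries (33.2 to 46.7 CPM) lay above all SEA libraries (21.1 to 30.0 CPM) (6.75% of genes tested did not overlap in this comparison, in either direction), a log2 difference of 0.60 (SE 0.18, unadjusted p = 0.0116, adjusted p = 0.9999, edgeR's quasi-likelihood test). In the PVN the EA and SEA libraries overlapped, and the difference was 0.39 (SE 0.15, unadjusted p = 0.0284, adjusted p = 0.917 by the same edgeR test). SEA against HT gave -0.48 (SE 0.18, adjusted p = 0.959, edgeR) in the CEA, where the groups did not overlap (9.86% of genes tested did not), and -0.20 (SE 0.13, adjusted p = 0.981, edgeR) in the PVN. EA against HT gave 0.13 (SE 0.18) in the CEA and 0.19 (SE 0.15) in the PVN. Nominal 95% intervals, too narrow with 3 libraries per group, ran from -0.23 to 0.49 and from -0.10 to 0.47. These smaller differences moved with single libraries. With 1 library left out, EA against HT in the PVN ran from 0.091 (without HT replicate 2) to 0.33 (without EA replicate 2) and in the CEA from -0.0041 (without EA replicate 1) to 0.25 (without EA replicate 3), and SEA against HT in the PVN ran from -0.33 (without SEA replicate 2) to -0.11 (without SEA replicate 3). In CEA HT and SEA the summed microglia markers were 604 to 707 CPM and 498 to 597 CPM, and the summed cortex markers 1970 to 2160 CPM and 606 to 1834 CPM, both without overlap. Their part in the result was not tested.

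Cp, the other ferroxidase of the set (chr2:104744461-104799853, plus strand), was also higher in most operated libraries, over a smaller range. It was 13.6, 11.4 and 9.62 CPM in PVN NC and 12.5 to 16.1 CPM (median 14.1) in operated PVN. In the CEA it was 10.7, 10.2 and 7.81 CPM in NC and 9.73 to 14.8 CPM (median 12.02) in operated rats. In each region 7 of the 9 operated libraries lay above the highest NC library and the groups overlapped. The log2 difference of operated from NC was 0.31 (SE 0.11) in the PVN and 0.30 (SE 0.15) in the CEA, and without NC replicate 3 of the region it was 0.20 and 0.17. Per length, in FPKM, Heph and Cp stood at 3.41 and 3.04 in PVN NC and at 7.81 and 3.73 in operated PVN, and at 3.82 and 2.53 in CEA NC and 7.82 and 3.11 in operated CEA. Cp overlaps Hps3 on the opposite strand, which had 153 to 351 counts, and the libraries were strand-specific, though the counting setting was not given in the sources used here.

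Across the 24 libraries, with each region centred on its own mean, log2 CPM of Cp correlated with that of Heph at r = 0.69, higher than all but 19 of the 14620 genes ranked, whose median r was -0.01. The centring left in the difference between NC and operated rats, by which the set was chosen, so genes with such a difference rank high. The points also share treatment groups, so these correlations and ranks are a description. Among the other members r with Heph was 0.39 for Slc11a2, 0.31 for Ireb2, 0.05 for Tfrc, -0.21 for Tf and -0.37 for Slc40a1. The 5 genes most like Heph were Lrg1 (r = 0.87), a secreted glycoprotein of the acute phase, Fn1 (0.81), the matrix protein fibronectin, Zpbp (0.77), Gpnmb (0.77), a membrane glycoprotein of phagocytes, and the unnamed AABR07060519.1 (0.77). Lrg1 had the largest difference of the 5 between operated and NC rats, 2.47 on the log2 scale in the PVN and 1.93 in the CEA, at a mean of 5.18 CPM.

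Genes around Heph on the X chromosome had smaller differences. Of those tested within 1000000 bases, the nearest, Gpr165, had an operated-minus-NC log2 difference of 0.28 (SE 0.11) in the PVN and 0.35 (SE 0.42) in the CEA, and Msn had -0.02 (SE 0.06) and -0.02 (SE 0.12). The largest in the PVN was Zc3h12b at 0.96 (SE 0.24), which was 0.03 (SE 0.24) in the CEA. AABR07038948.2 was 0.65 (SE 0.28) and 0.76 (SE 0.32).

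Slc40a1, the exporter that works with these ferroxidases (chr9:52894365-52912293, minus strand), was the lowest of the measured members, with 25 to 146 counts per library. In the CEA it was 4.90, 8.79 and 8.82 CPM in NC, 3.70, 2.53 and 8.25 in HT, 3.35, 4.66 and 5.15 in EA, and 4.70, 1.75 and 5.12 in SEA. None of the 9 operated CEA libraries exceeded the highest NC library, and HT replicate 3 came near it. The log2 difference of operated from NC was -0.78 (SE 0.34) in the CEA, while in the PVN it was -0.14 (SE 0.33), with 1.58 to 4.35 CPM in operated and 1.83 to 5.07 CPM in NC libraries, and turned to 0.42 without NC replicate 2. The second Slc40a1 row (ENSRNOG00000049995) held 0 or 1 count per library and was not tested.

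Ireb2, which senses iron, and Slc11a2, which carries it out of the endosome, were lower in 2 of the 3 PVN NC libraries than in any operated PVN library. Ireb2 (chr8:59420123-59501118, plus strand) was 26.0, 44.6 and 26.6 CPM in PVN NC and 41.1 to 50.4 CPM (median 47.2) in operated PVN, a log2 difference of 0.55 (SE 0.14). Slc11a2 (chr7:142025815-142063212, minus strand) was 43.6, 65.7 and 43.8 CPM in PVN NC and 60.1 to 69.0 CPM (median 61.0) in operated PVN, a difference of 0.30 (SE 0.11). PVN NC replicate 2 lay within the operated range for both genes. Without that library the differences were 0.86 for Ireb2 and 0.54 for Slc11a2, and without NC replicate 1 or 3 they were 0.42 and 0.20. Mitochondrial genes took 8.77%, 7.58% and 8.62% of counts in PVN NC replicates 1 to 3 and 7.07% to 8.01% in operated PVN. The summed CPM of 5 cortex markers was 196, 139 and 185 in PVN NC replicates 1 to 3 and 131 to 148 in operated PVN, and within the PVN it correlated with Ireb2 at r = -0.94, with Slc11a2 at r = -0.87 and with Heph at r = -0.74 (n = 12 libraries, log2 scale), the last being -0.05 in the CEA. Most of this sum was Nrgn, a protein of excitatory neurons, at a mean of 160 CPM in PVN NC and 118 CPM in operated PVN, while the glutamate transporter Slc17a7 stood the other way, at 7.03 and 11.7 CPM. The part of either in the results was not tested. In the CEA, Ireb2 was 37.1, 41.2 and 38.9 CPM in NC and 32.5, 22.4 and 31.0 CPM in HT, which did not overlap (10.4% of genes tested did not), with a log2 difference of -0.44 (SE 0.17), or -0.29 without HT replicate 2, and EA (34.2 to 52.3 CPM) and SEA (35.5 to 38.3 CPM) overlapped NC. The cortex marker sum was 1970 to 2160 CPM in CEA HT, above all other CEA libraries (1390 to 1928 CPM in NC, 610 to 1409 in EA and 606 to 1834 in SEA), and correlated with Ireb2 within the CEA at r = -0.62 (n = 12 libraries). Microglia markers summed to 441 to 565 CPM in CEA NC and 604 to 707 CPM in CEA HT, also without overlap. Within the CEA they correlated with Ireb2 at r = -0.74. The part of either list in the result was not tested. Slc11a2 in the CEA was 43.3 to 61.6 CPM in NC and 48.9 to 63.9 CPM in operated rats.

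Transferrin and its receptor, the uptake side of the set, did not separate operated from NC rats. Tf (chr8:111673547-111721333, minus strand) was 396, 490 and 609 CPM in PVN NC and 378 to 621 CPM (median 478) in operated PVN, and 859, 1554 and 997 CPM in CEA NC and 887 to 1631 CPM (median 1067) in operated CEA. Tfrc (chr11:71397383-71419223, minus strand) was 126, 91.6 and 82.5 CPM in PVN NC and 79.5 to 140 CPM in operated PVN, and 132, 99.1 and 117 CPM in CEA NC and 63.4 to 154 CPM in operated CEA. The log2 differences lay between -0.03 and 0.14 for both genes in both regions.

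**Figure D2:**
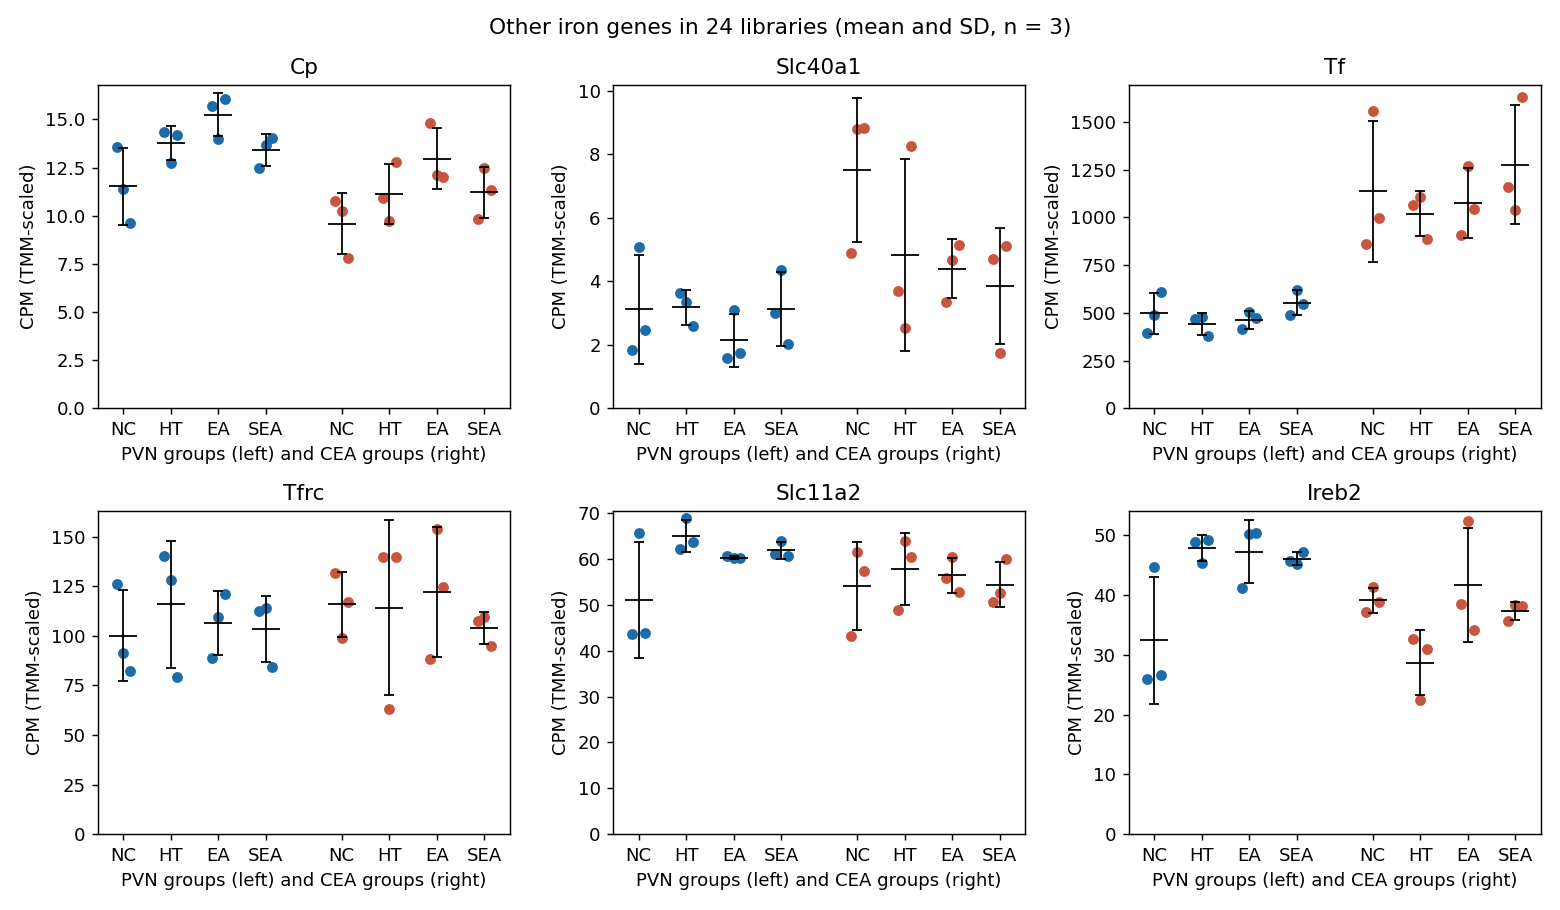
CPM (vertical axes, TMM-scaled, from 0, scaled separately per gene) of Cp, Slc40a1, Tf, Tfrc, Slc11a2 and Ireb2 in each PVN (blue) and CEA (red) library, with group means and SD (n = 3). Tf separates the regions, with 378 to 621 CPM in the PVN and 859 to 1631 CPM in the CEA, and PVN NC replicate 2 lies apart from the other NC libraries for Ireb2 and Slc11a2.

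Fth1 (chr1:226030938-226033228, plus strand) was listed at 0 in all 24 libraries. Every cell uses ferritin heavy chain, so the row is uncertain. It overlaps Best1 on the opposite strand, which had 41 to 126 counts. The ferritin light chain was likewise split between rows, with Ftl1 on chromosome 5 at 23 to 89 counts and LOC100360087, a light chain 1-like gene on chromosome 1, at 2190 to 6397 counts. How reads matching several places were counted was not given in the sources used here, so levels are not compared between ferritin rows, and a difference between groups in any of them is uncertain.

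In operated against NC in the PVN, 9.48% of 17211 genes passed the threshold (edgeR adjusted p under 0.05), and of the 7 member rows 2 did. This contrast chose the set, so the count of members is fixed in part by the choice and nothing is read from it. HT alone against NC in the PVN called 0 members and 2 of 16727 genes (0.012%), with 1847 genes at an unadjusted p under 0.05. In the CEA, operated against NC and HT against NC called 0 of 17046 genes (0%) and 0 of 16413 genes (0%), where 501 and 616 genes had an unadjusted p under 0.05, whereas DESeq2 called 12 and 25 genes, with 1 member in each. Without PVN NC replicate 1 or replicate 3, 0 members and 1 and 0 genes passed in operated against NC, and without replicate 2, 3 members and 6103 genes did.

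The wider iron genes were taken from 5 lists of 62 symbols, of which 60 were in the table. In operated against NC in the PVN, 5 of 55 rows tested passed with a higher level and 3 with a lower one, and the median log2 difference was -0.02, beside -0.01 over all genes, of which 935 passed higher and 696 lower. Leaving out the members, 3 passed higher and 3 lower of 48. Atp7a, the copper pump that loads the copper ferroxidases, was 4.25 to 11.4 CPM in PVN NC and 11.04 to 12.7 CPM in operated PVN, a log2 difference of 0.79 (SE 0.21), and -0.17 (SE 0.29) in the CEA. Without PVN NC replicate 2 the PVN value was 1.35, and without replicate 3 it was 0.52. Lower in the PVN were Pcbp2, an iron chaperone (-0.26, SE 0.07), and Glrx5, a mitochondrial protein of iron-sulfur cluster assembly (-0.31, SE 0.09). Without PVN NC replicate 3, Glrx5 was at -0.19. In the CEA they were at -0.03 (SE 0.15) and 0.02 (SE 0.15). In PVN HT against NC, in the CEA comparisons with NC and among operated groups, 0 rows of the lists passed in edgeR, and 2 to 4 had an unadjusted p under 0.05 in each.

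Among the 3 operated groups, none of the 7 members passed in any comparison. EA against HT called 16 of 16641 genes in the PVN (0.0961%) and 0 of 16479 in the CEA (0%). SEA against HT called 0 of 16634 and 0 of 16393 genes (0% and 0%), and EA against SEA 0 of 16606 and 0 of 16322 (0% and 0%). The unadjusted p was under 0.05 for 944, 526, 728, 503, 865 and 324 genes in that order, and DESeq2 called 99, 7, 21, 3, 23 and 5. Tf was higher in SEA than in HT by 0.32 (SE 0.11, adjusted p = 0.981, edgeR) in the PVN, with 491 to 621 CPM against 378 to 478 CPM, groups that did not overlap (9.88% of genes tested did not). Ependyma markers there summed to 93.1 to 108 CPM in SEA and 78.5 to 90.7 CPM in HT. PVN HT replicate 3, the lowest in Tf, had a paraventricular marker sum of 410 CPM, against 891 to 1349 CPM in the other PVN libraries. Without it the Tf difference was 0.22. The part of either in the result was not tested. In the CEA SEA against HT gave 0.31 (SE 0.21) for Tf, the groups overlapped, and without SEA replicate 3 the value was 0.10. Ireb2 in the CEA was 0.53 (SE 0.22, adjusted p = 0.930, edgeR) higher in EA than in HT, without overlap (9.66% of genes tested had none). Without CEA EA replicate 2 the difference was 0.34. That library had Ireb2 at 52.3 CPM, against 38.4 and 34.2 CPM in the other EA libraries, and a mitochondrial share of 3.80%, against 10.1% to 14.4% in the other CEA libraries. SEA (35.5 to 38.3 CPM) also lay above HT (22.4 to 32.5 CPM). The cortex marker sum stood the other way in these groups, as given above, and the sum of amygdala and striatum markers was 2830 to 3931 CPM in CEA EA and 4518 to 6447 CPM in CEA HT, without overlap. Their part in the result was not tested. Slc11a2 in the PVN was 60.1 to 60.6 CPM in EA and 62.2 to 69.0 CPM in HT, also without overlap, where 12% of genes tested did not overlap. Marker sums without overlap in these PVN groups, EA first, were ependyma (95.5 to 104 and 78.5 to 90.7 CPM) and red blood cells (793 to 1298 and 502 to 754). Choroid plexus (20.9 to 23.9 and 17.6 to 20.3) was a further one. The part of these cells in the result was not tested. In PVN EA against SEA, 0 members were without overlap, as against 10.7% of genes tested. Slc40a1 in the PVN was -0.58 (SE 0.29, adjusted p = 0.907, edgeR) in EA against HT, from 1.58 to 3.09 CPM against 2.58 to 3.65 CPM, and -0.95 without EA replicate 2.

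**Figure D3:**
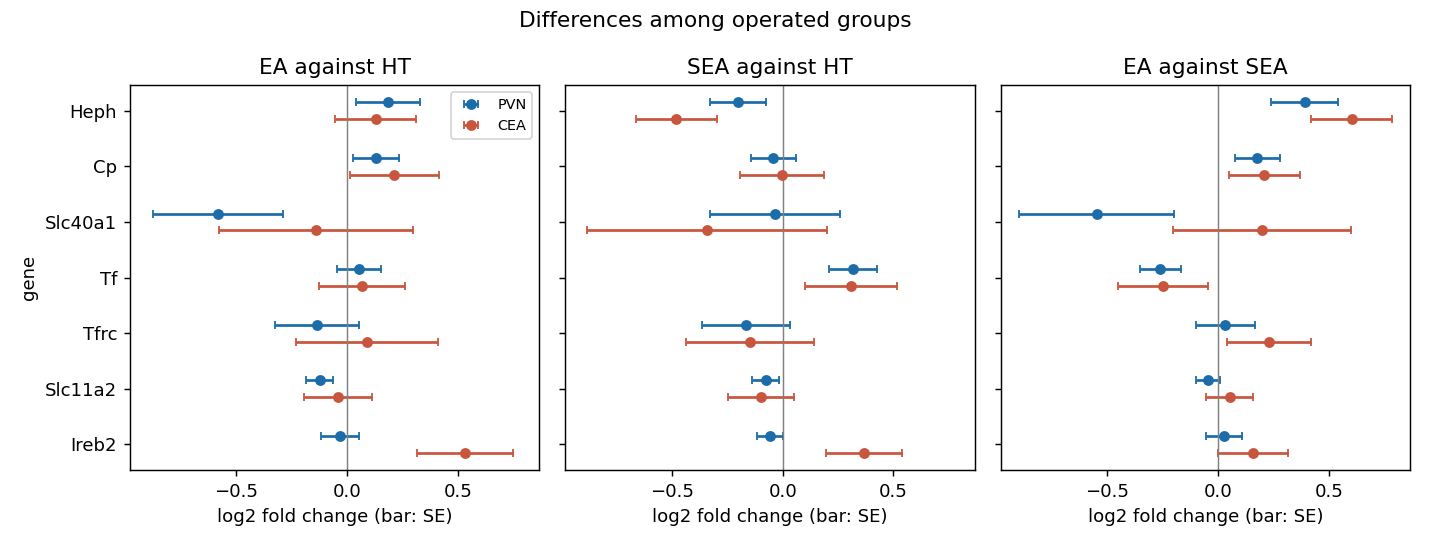
Log2 fold changes (horizontal axis, bars are SE) of 7 genes in the PVN (blue) and CEA (red) for EA against HT, SEA against HT and EA against SEA, 3 libraries per group. Heph lies to the right of 0 in EA against SEA in both regions (0.39 and 0.60), and none of the points passed the adjusted threshold.

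Levels of the members were also compared between the regions. Per length, Tf was the most abundant member at 150 ± 23.1 FPKM in the PVN and 345 ± 75.5 in the CEA (SD, n = 12), followed by Tfrc (22.2 ± 4.28 and 23.8 ± 5.35), Ireb2 (12.8 ± 2.48 and 10.8 ± 2.07), Slc11a2 (11.3 ± 1.495 and 10.6 ± 1.17), Heph (6.71 ± 2.33 and 6.82 ± 2.37), Cp (3.56 ± 0.47 and 2.96 ± 0.47) and Slc40a1 (0.89 ± 0.33 and 1.59 ± 0.73). Ireb2 and Slc11a2, neighbours in this order, differed in the CEA by less than these SDs.

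With treatment as a covariate, 3 of the 7 members passed in CEA against PVN, where 57.9% of 16434 genes did, a share of members not above the background. The fit takes all libraries as separate, though libraries of the regions may share rats. Tf was higher in the CEA by 1.18 on the log2 scale (SE 0.10, adjusted p = 3.39e-10, edgeR), with no overlap between the 12 CEA libraries and the 12 PVN libraries (15.1% of genes tested did not overlap). Slc40a1 was higher in the CEA by 0.77 (SE 0.23, adjusted p = 0.00646, edgeR). Cp was lower in the CEA, with a log2 difference of -0.29 (SE 0.07, adjusted p = 0.00125, edgeR). Ireb2 had -0.27 (SE 0.11, adjusted p = 0.0516, edgeR), Slc11a2 -0.12 (SE 0.07) and Tfrc 0.07 (SE 0.13), none past the threshold. Ireb2 lay near it and passed in 7 of 30 alternatives, with a lowest adjusted p of 0.0130 (edgeR). In the NC libraries alone the value of Tf was 1.18 and still passed (adjusted p = 0.0128, edgeR), while Slc40a1 at 1.24 (adjusted p = 0.0655, edgeR) and Cp at -0.27 (adjusted p = 0.353, edgeR) did not. With the replicate number as a block, since same-numbered NC libraries deviated together, Slc40a1 passed at 1.32 (adjusted p = 0.0218, edgeR) and Cp did not (-0.27, adjusted p = 0.212, edgeR). Ireb2 at 0.26 (adjusted p = 0.419, edgeR) and Slc11a2 at 0.07 (adjusted p = 0.825, edgeR) were opposite in sign in the NC libraries alone.

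Markers of oligodendrocytes moved with region in the same way as Tf. All 13 markers were detected, and their summed level was 10764 to 18086 CPM in the PVN and 28069 to 47430 CPM in the CEA, without overlap. Tf per 1000 CPM of these markers was 36.1 ± 4.47 CPM in the PVN and 31.5 ± 3.46 CPM in the CEA (SD, n = 12). Within a region log2 Tf correlated with the log2 marker sum at r = 0.60 in the PVN and 0.84 in the CEA (n = 12 each, libraries that share treatment groups). In the PVN its correlation was higher with neuron (0.79) and endothelium (0.62) markers, so it was not particular to oligodendrocyte markers there. In the CEA no other marker list had a higher one. Markers of astrocytes, which make Cp, were all detected (10 of 10), and their summed level was 4898 to 5741 CPM in the PVN and 4828 to 6496 CPM in the CEA. Microglia markers were 341 to 434 CPM in the PVN and 441 to 707 CPM in the CEA, and correlated with Heph at r = 0.26 and 0.57. In the PVN several lists had an r with Heph further from 0, among them ependyma (-0.55), red blood cells (-0.45) and thalamus (0.44). In the CEA no list did. Choroid plexus markers reached 405, 1126 and 1854 CPM in CEA EA replicate 1, NC replicate 2 and SEA replicate 2, against 9.99 to 30.0 CPM in all other libraries. Heph in those 3 was 46.7, 16.4 and 27.7 CPM. The part of these cells in the results was not tested.

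**Figure D4:**
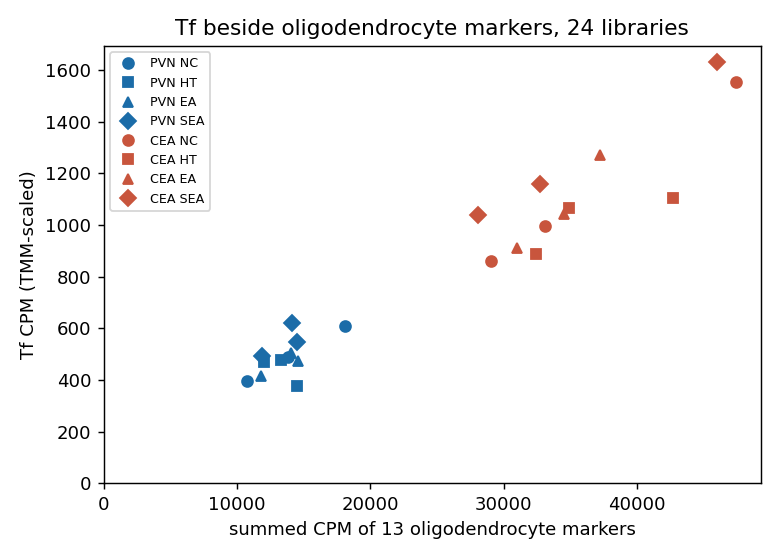
Tf CPM (vertical axis) against the summed CPM of 13 oligodendrocyte markers (horizontal axis) in the 24 libraries, blue for the PVN and red for the CEA, with a marker shape per treatment. The PVN libraries lie at 10764 to 18086 CPM of markers and the CEA libraries at 28069 to 47430, and Tf is higher in all CEA than in all PVN libraries.

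In the 5 iron lists, 13 of 54 rows tested were higher in the CEA and 14 lower, with a median log2 difference of 0.08 against -0.01 over all genes, of which 4557 were higher and 4959 lower. Iron storage genes gave 1 higher, the uncertain Ftl1, and 2 lower of 3, the export and ferroxidase list 1 higher and 4 lower of 9, and the mitochondrial iron and heme list 6 higher and 4 lower of 19. Higher in the CEA besides Tf were the heme synthesis enzyme Cpox (0.60, SE 0.06, adjusted p = 1.74e-08, edgeR), the hypoxia factor Epas1 (0.40, SE 0.04), and Ftl1 (0.92, SE 0.17), whose row is uncertain as above. Lower in the CEA were the ferric reductase Cybrd1 (-0.99, SE 0.17), the heme exporter Flvcr1 (-0.77, SE 0.14), the mitochondrial transporter Abcb10 (-0.59, SE 0.09), the biliverdin reductase Blvra (-0.51, SE 0.09) and the lipocalin receptor Slc22a17 (-0.50, SE 0.07), which was the most abundant of these at 817 CPM in the CEA and 1140 CPM in the PVN. Adjusted p for these ran down to 1.17e-06 among the lower genes (Slc22a17). In the NC libraries alone, Cybrd1 (-0.68, adjusted p = 0.102, edgeR), Flvcr1 (-0.50, adjusted p = 0.263, edgeR) and Ftl1 (0.33, adjusted p = 0.427, edgeR) no longer passed, while Cpox, Epas1, Abcb10, Blvra and Slc22a17 still did (adjusted p from 0.0160 to 0.0468, edgeR).

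**Figure D5:**
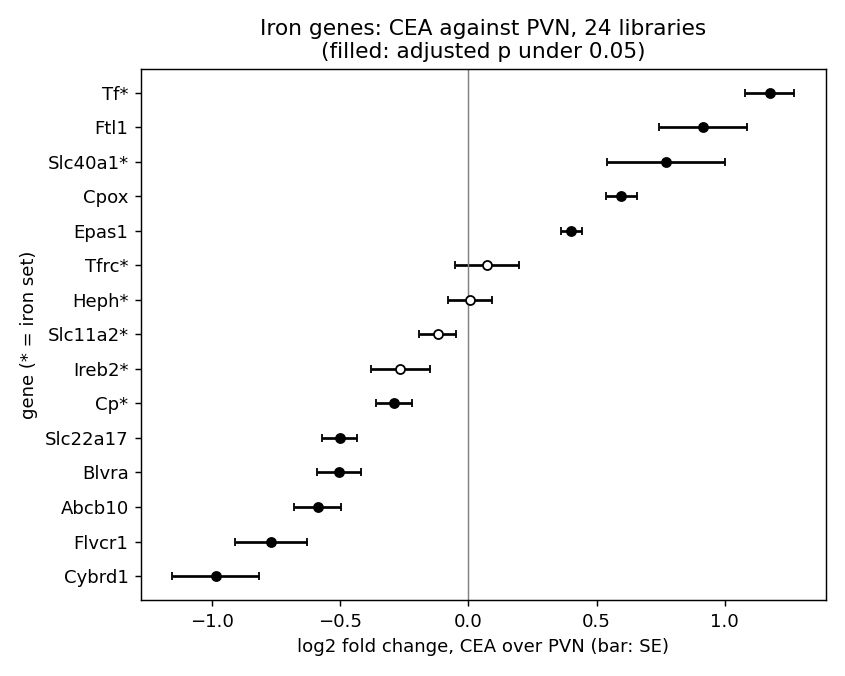
Log2 fold change of CEA over PVN (horizontal axis, bars are SE, 24 libraries) for the 7 measured members (starred) and the other iron genes named for this comparison, with filled points past an adjusted p of 0.05. Tf is highest at 1.18, Cybrd1 lowest at -0.99, and Heph lies at 0.01.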

How the data were processed

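mRNA of 24 rat brain libraries was analysed, 3 per region and treatment, grouped by the sample titles. The authors deposited whole-number read counts per gene, without normalization, from strand-specific libraries mapped with HISAT2 and counted with featureCounts. Versions were not given in the sources used here. The methods name mRatBN7.2 and the labels a human build, whereas the table's largest gene end on chromosome 1, 282724300, lies beyond that assembly, so coordinates are printed as deposited with no build. A stray second header line was left out. It exchanges CEA EA replicates 2 and 3, and numbers here follow the titles. The study left 1 CEA EA library, which it does not number, out of its co-expression network, and all 3 are kept here. Totals ran from 13152772 to 18607032 counts per library, mitochondrial genes took 3.80% to 14.4%, and the limit set by a count of 0 was 3 counts, which is 0.157 to 0.240 CPM and covers counting error only.

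Each comparison was tested on its own groups with edgeR 4.0.16 (R 4.3.3), using filterByExpr, TMM factors and the two-sided quasi-likelihood test, with Benjamini-Hochberg adjustment at 0.05 over all genes tested. CEA was compared with PVN over 24 libraries with treatment as a covariate. The study used DESeq2, which was an alternative here (1.42.0), as were RLE factors, no filter, one fit of all 4 groups, a replicate block and leaving out each library. FPKM used the deposited gene lengths and TMM-scaled totals. The 95% intervals are 1.96 SE on either side, a normal multiplier that is too small where a group has 3 libraries. On simulated counts with 200 genes changed 4-fold, 100% were recovered for PVN EA against HT (16641 genes), 99% for PVN operated against NC (17211 genes) and 100% for CEA against PVN (16434 genes), with 19, 12 and 9 false calls. Smaller changes, such as those of the members, were not simulated.

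The members and gene lists were chosen with earlier results of these data known. Named genes are the members, up to 3 list genes per direction and comparison (5 for the regions) with the smallest p among those past the threshold, and the 5 genes most correlated with Heph. Some genes that this rule names are not reported here. Same-numbered libraries deviated together in every pair for CEA HT and NC (r from 0.187 to 0.332), where the replicate block called 0 members as without it, and for the NC libraries of the regions (r from 0.129 to 0.315), whose blocked fit was added after seeing the data. The labels do not say that replicates came from separate rats, so p-values measure the spread between these libraries.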

Additional observations from a re-analysis of the deposited data

Results flagged for a closer look

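Slc11a2 in PVN HT replicate 2 was 69.0 CPM, far from the other 8 operated PVN libraries, of which the nearest was at 64.0 CPM. Its gap was 0.561 of the range of the 9, above Dixon's critical value for 9 libraries. Dixon's test was applied to 14 sets of libraries, and chance flags about 1 in 20.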

How the results depend on the processing

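Of 942 recomputed single-gene values in comparisons that the rule did not use, 878 kept their direction and side of the threshold. Of 460 in comparisons with NC, which are given as descriptions, 455 moved by less than the SD between replicates. Fitted log2 differences of Heph in operated against NC rats stayed between 1.16 and 1.27 in the PVN and between 0.94 and 1.15 in the CEA when a library was left out. Which members passed in the PVN depended on the tool and on single libraries. For operated against NC in the PVN, 2 members passed, 4 with DESeq2, 3 with the replicate block, and 0 to 3 with 1 library left out (0 without NC replicate 1 or 3), while all genes called went from 1631 to 3062 with DESeq2, 665 without the filter, 2244 with the replicate block and 0 to 6103 with a library left out. For PVN HT against NC, 0 members passed, 1 with DESeq2, 1 without the filter and 0 to 3 with a library left out, and genes called went from 2 to 31 with DESeq2 and up to 3418. DESeq2 called 1 member in CEA operated against NC and 1 in CEA HT against NC, where edgeR called 0. For PVN EA against HT, genes called went from 16 to 99 with DESeq2, 69 without the filter and 5 with the replicate block. The fit of all 4 groups called 0, and leaving out a library gave 0 to 28. For CEA against PVN, 3 members passed, 3 to 4 with a library left out, 1 in the NC libraries only and 2 there with the replicate block, where genes called were 4414 and 4613, down from 9516.

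Some values changed sign. In the NC libraries only, CEA against PVN was 0.070 for Slc11a2 and 0.26 for Ireb2, and 0.085 and 0.303 with the replicate block. Cp in CEA SEA against HT (main value -0.0032) was 0.012 with RLE factors, 0.014 with DESeq2, 0.0069 without the filter, 0.00015 with the replicate block and 0.0098 in the fit of all 4 groups. With a library left out, ranges of log2 values that crossed 0 were, in PVN EA against HT, -0.045 to 0.12 for Tf, -0.078 to 0.048 for Ireb2 and -0.345 to 0.022 for Tfrc. In PVN SEA against HT it was -0.35 to 0.20 for Slc40a1, and in PVN EA against SEA -0.016 to 0.11 for Ireb2 and -0.098 to 0.14 for Tfrc. In CEA EA against HT they were -0.0041 to 0.25 for Heph, -0.069 to 0.17 for Tf, -0.14 to 0.046 for Slc11a2, -0.44 to 0.49 for Slc40a1 and -0.19 to 0.27 for Tfrc. In CEA SEA against HT they were -0.087 to 0.11 for Cp, -0.64 to 0.29 for Slc40a1 and -0.43 to 0.036 for Tfrc. In CEA EA against SEA they were -0.0057 to 0.12 for Slc11a2, -0.044 to 0.29 for Ireb2 and -0.16 to 0.44 for Slc40a1. Heph in CEA against PVN ran from -0.027 to 0.047. Against NC they were, for PVN operated rats, -0.15 to 0.15 for Tf and -0.40 to 0.42 for Slc40a1, for PVN HT -0.29 to 0.0079 and -0.22 to 0.60, for CEA operated rats -0.19 to 0.28 for Tf, -0.086 to 0.16 for Slc11a2 and -0.13 to 0.069 for Tfrc, and for CEA HT -0.31 to 0.14, -0.034 to 0.20 and -0.20 to 0.28. The replicate block changed no other call among the members in the edgeR comparisons. Causes were not tested.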
